A study of Mus musculus with 24 samples.

Results

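Gene expression was compared between differentiating male mESCs with *Smarcc1* knockdown and the same cells with a nonsilencing control hairpin (Nons). The samples were chosen by their names: 8 samples carry *Smarcc1* hairpin 6 or 7 on days 4, 5, 6 and 7, and 4 samples are Nons of replicate 1 on the same days. These 12 are among 20 samples with values in the expression table and 24 in the series. The question the comparison addresses is which genes respond when a subunit of the BAF chromatin remodelling complex is depleted while cells leave the pluripotent state.

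All groups are C57/Bl6 mESC lines that were kept in 2i medium and made to differentiate by weaning into DME HiHi, a serum medium. Hairpins were delivered by virus on day 2 and transduced cells were selected with puromycin on day 3. The knockdown group holds 1 sample per hairpin and day and the control group 1 sample per day. Nothing in the labels says that the days of a hairpin were separate cultures, yet the fit treats the days as independent unless stated. Its *p*-values measure the spread between hairpins of the same target and day. Nons, with 1 sample per day, adds nothing to that spread. A difference between the culture of the single Nons series and the other cultures cannot be told apart from the knockdown. The 8 samples of *Smarca4* hairpins 4 and 6 were used to estimate the spread between hairpins of a day, and for a contrast between both knockdowns. Their titles name *Smarca4* while their genotype label reads Smarcc knockdown, and the titles were followed. The 12 samples held between 15717152 and 27472885 reads and between 16820 and 18129 genes with at least 1 read. Values are rpm, the count of a gene relative to all reads of the sample, or their log2. They are not scaled to transcript length, so that levels are compared between samples of a gene and not between genes. *Pou5f1*, the defining transcription factor of pluripotent cells, was present in all 12 samples, at 1610, 1080, 785 and 227 rpm in Nons on days 4, 5, 6 and 7.

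BAF complexes use the energy of ATP to slide or evict nucleosomes, and so open chromatin to transcription factors. *Smarca4* encodes the ATPase Brg1, and *Smarcc1* encodes Baf155, a scaffold subunit around which the complex is assembled. In mESCs a BAF complex built on both proteins shares many binding sites with the pluripotency factors and with the effector of LIF signalling, Stat3, and its loss is known to disturb self-renewal as well as differentiation.

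The guide strands of the hairpins against *Smarcc1* are shown next. Each guide is written 5′ to 3′ as DNA, and the capitals mark its seed (bases 2 to 8).
Smarcc1.6: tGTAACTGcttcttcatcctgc
Smarcc1.7: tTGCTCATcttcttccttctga
Nons: cTTACTCTcgcccaagcgagag
In GENCODE transcripts of GRCm38 the 22 base site of Smarcc1.6 lies at chr9:110177472-110177493 on the + strand, in exon 13 of 28 of *Smarcc1*, and that of Smarcc1.7 at chr9:110173911-110173932, in exon 11 of 28. Both sites are in coding sequence, occur in 5 transcripts of *Smarcc1* and occur in no other gene. No GENCODE transcript holds the site of the Nons guide. Transcripts that pair with a seed alone were not analysed.

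*Smarcc1* was lower than in the Nons sample of its day in every knockdown sample. In Nons it stood at 451, 260, 127 and 172 rpm on days 4, 5, 6 and 7. Hairpin 6 left 163, 61.5, 43.6 and 71.5 rpm on these days and hairpin 7 left 192, 109, 76.4 and 80.9 rpm. Nons itself was lower on later days and the ranges of the groups overlapped, with hairpin 7 on day 4 above Nons of days 6 and 7 and hairpin 6 on day 4 above Nons of day 6. Over the 4 days the mean log2 fold change was -1.33 (SE = 0.21, adjusted *p* = 0.00115 in limma with the Benjamini-Hochberg correction over all genes tested). The knockdown was partial, and it was deeper for hairpin 6 than for hairpin 7 on each day.

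Genes of the complex were called at about the share of all genes (10.6%). Of the 27 BAF and PBAF subunits tested, 1 was called higher (0 without day 7; 2 without day 5; 5 without days 5 and 6, block 1) and 2 lower (1 without hairpin 6 or day 7, block 1), *Smarcc1* being among the latter. Brackets after such small counts give the count where leaving out a hairpin, a day, days 5 and 6 or a sample, or quantile normalization, moved it more than 1.5 times, and the count with each series of 4 days as a replicate block. The median log2 fold change was 0.02 (-0.04 after centring each sample on its median gene and after quantile normalization). *Bcl11a*, a subunit known from neural and blood cells, was at 26.9, 20.4, 7.44 and 4.26 rpm in Nons and at 1.87, 6.5 and 21.3 rpm as the lowest, median and highest of the 8 knockdown samples (log2 fold change = -0.87, SE = 0.19, adjusted *p* = 0.0109). It was lower than same-day Nons in all 8 samples, with ranges that overlapped, since levels were lower on later days in both groups. *Dpf1*, a subunit of the neuronal form of the complex, was higher (log2 fold change = 1.09, SE = 0.20, adjusted *p* = 0.00318). *Smarca4* was at 222, 151, 90.4 and 160 rpm in Nons and at 90.8, 200 and 258 rpm in the knockdown samples and was not called (log2 fold change = 0.27, SE = 0.29, adjusted *p* = 0.634). The call of *Bcl11a* was lost with the replicate block and without hairpin 6 or day 7 (adjusted *p* = 0.0612 to 0.118). The call of *Dpf1* was lost without day 7 (adjusted *p* = 0.139).

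Across the transcriptome more genes rose than fell. In the knockdown samples 1003 genes were higher than Nons and 409 were lower, together 1412 of the 13296 genes tested with limma at an adjusted *p* of 0.05. The calls are 10.6% of the genes tested, 7.54% higher and 3.08% lower. Of the calls, 71% were higher, and 520 of the higher but 120 of the lower genes differed by more than 2-fold. Among the genes tested, rises were thus both more numerous and more often large than falls. The excess was not the same at all levels. Of 5 classes by mean level, the lowest held 16.6% higher and 3.46% lower calls, and the highest 2.75% and 2.52%.

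The calls rest on the days and hairpins to unequal degrees. With each series of 4 days entered as a replicate block, 605 genes were called (4.55% of those tested), 454 higher and 151 lower, all of them among the 1412. All 8 knockdown samples lay on 1 side of same-day Nons for 1009 of the 1412 genes, against 13.9% of all genes tested. For 110 of the 1412 the groups did not overlap at all, which holds for 0.955% of all genes tested. Leaving out day 7 left 400 calls (301 higher, 99 lower), leaving out day 6 left 811 (598 and 213), and leaving out hairpin 7 left 818 (528 and 290). Quantile normalization gave 600 higher and 518 lower genes, so that 53.7% of its calls were higher. The excess of rises over falls thus depends on the scaling as well as on the minimum level. The median log2 fold change of all genes was 0.06, against 0.01 after centring and -0.02 after quantile normalization.

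A tilt with transcript length was present in some samples. The median difference from same-day Nons of the 20% of genes with the longest transcripts minus that of the 20% with the shortest was 0.16, -0.65, -0.01 and 0.24 on the log2 scale for hairpin 6 on days 4, 5, 6 and 7, and 0.19, 0.39, 1.18 and 0.58 for hairpin 7. It was largest on day 6 of hairpin 7 and had the opposite sign on day 5 of hairpin 6. In 5 classes of equal size, from shortest to longest, the calls were 6.92%, 8.36%, 7.80%, 8.19% and 7.36% higher and 3.72%, 4.16%, 3.46%, 2.89% and 2.28% lower. After removing this tilt from each sample, a choice made after seeing the data, 1235 genes were called higher and 544 lower among the 11420 with a known length, against 888 and 381 of the same genes without the removal. Without days 5 and 6 altogether, also chosen after seeing the data, 2688 were higher and 1080 lower. The part of RNA quality in these differences was not tested.

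**Figure D1:**
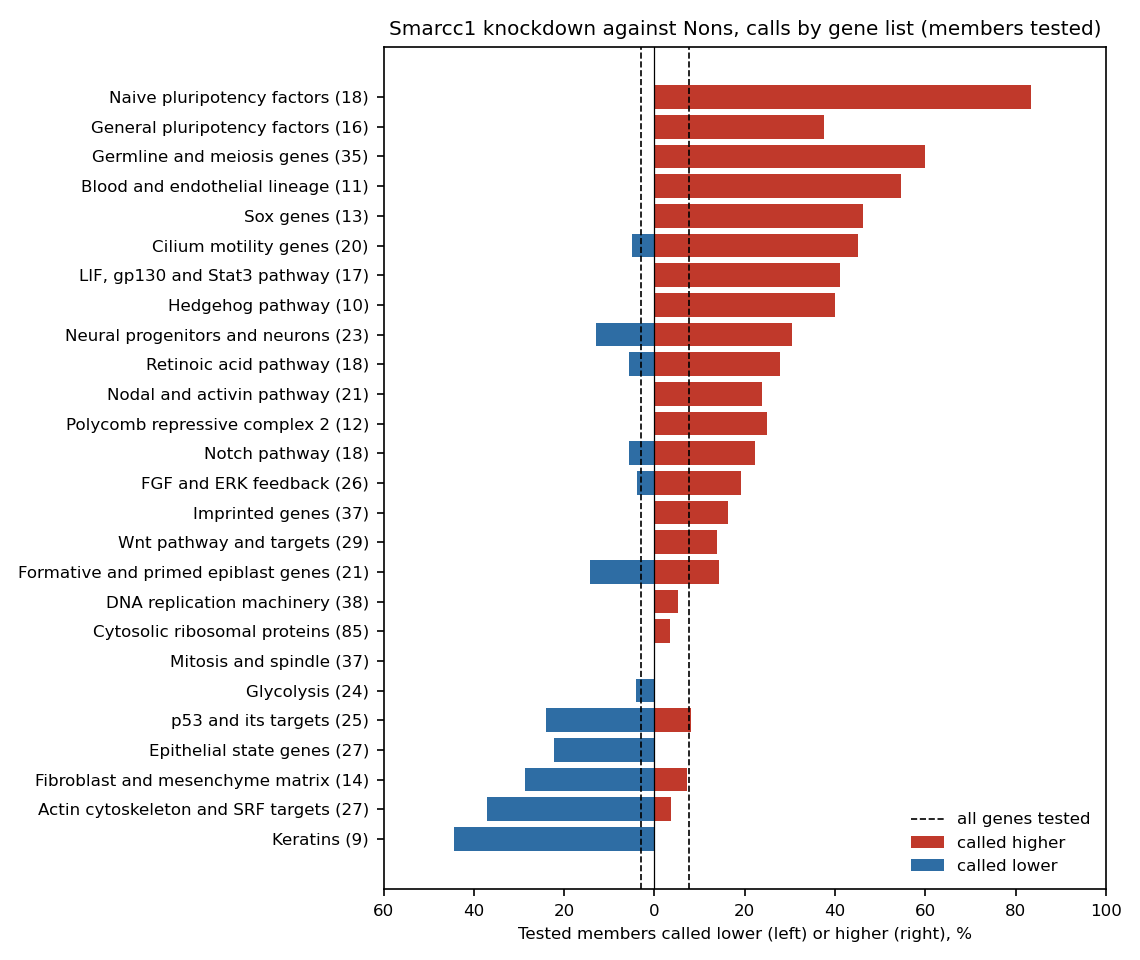
Share of each gene list called higher (to the right) or lower (to the left) in *Smarcc1* knockdown than in Nons, in percent of the members tested, for 26 lists. Dashed lines mark the share among all genes tested, 7.54% higher and 3.08% lower. Naive pluripotency, germline and blood lists extend furthest to the right and keratins and actin genes furthest to the left. The blood list includes *Sox18*, which passed the minimum level only through the *Smarcc1* samples, so its place depends on the filter.

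Genes of the naive pluripotent state held the largest share of rises among the lists described here. This state is that of the inner cell mass and of mESCs in 2i, and its transcription factors are switched off as cells become primed. Of the 18 naive factors tested, 15 were called higher and 0 lower, with a median log2 fold change of 1.48 against 0.06 for all genes. With the replicate block 12 were called, and the count was 9 without day 7. The differences were present on all 4 days, with list medians of 0.89, 1.14, 1.72 and 2.06 on days 4, 5, 6 and 7.

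*Klf2*, a Krüppel-like factor that helps to hold the naive state, was at 35.4, 9.12, 2.67 and 6.29 rpm in Nons on days 4, 5, 6 and 7 and at 23.7, 36.5 and 60.9 rpm as the lowest, median and highest of the knockdown samples. All 8 knockdown samples were above same-day Nons, and the ranges met only through Nons of day 4. The log2 fold change was 2.12 (SE = 0.17, adjusted *p* = 8.74e-06). *Esrrb*, an orphan nuclear receptor of the same network, was at 48.4, 9.12, 3.05 and 3.14 rpm in Nons and 11.2, 19.3 and 146 rpm in the knockdown samples. Every knockdown sample exceeded its control, and levels were lower after day 4 in both groups (log2 fold change = 1.84, SE = 0.19, adjusted *p* = 6.90e-05). *Spp1*, a secreted phosphoprotein, was at 183, 125, 79.9 and 27.2 rpm in Nons and at 214, 283 and 398 rpm in the knockdown samples. Here the groups did not overlap, and Nons of day 7 was lowest (log2 fold change = 1.76, SE = 0.18, adjusted *p* = 6.49e-05). *Nr5a2* (2.37), *Jam2* (2.22), *Klf4* (1.81) and *Tcl1* (1.79) also rose, these values being log2 fold changes, and were above same-day Nons in 8 of 8 samples. *Dppa3*, which protects the maternal genome in the zygote, was near Nons on day 4 and more than 2-fold higher on days 6 and 7 (log2 fold change = 1.46, SE = 0.24, adjusted *p* = 0.00197). The call of *Dppa3* was lost without day 7 (adjusted *p* = 0.0961).

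The summed level of the 19 naive genes in the table was 699, 314, 229 and 183 rpm in Nons on days 4 to 7, 1450, 938, 746 and 611 rpm with hairpin 6 and 1210, 587, 609 and 540 rpm with hairpin 7. The gene with the most reads was *Spp1*. The sum was highest on day 4 in Nons and with each hairpin, and the knockdown samples of day 7 lay between Nons of days 4 and 5. In samples of many cells, fewer cells of a state and less RNA per cell cannot be told apart.

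**Figure D2:**
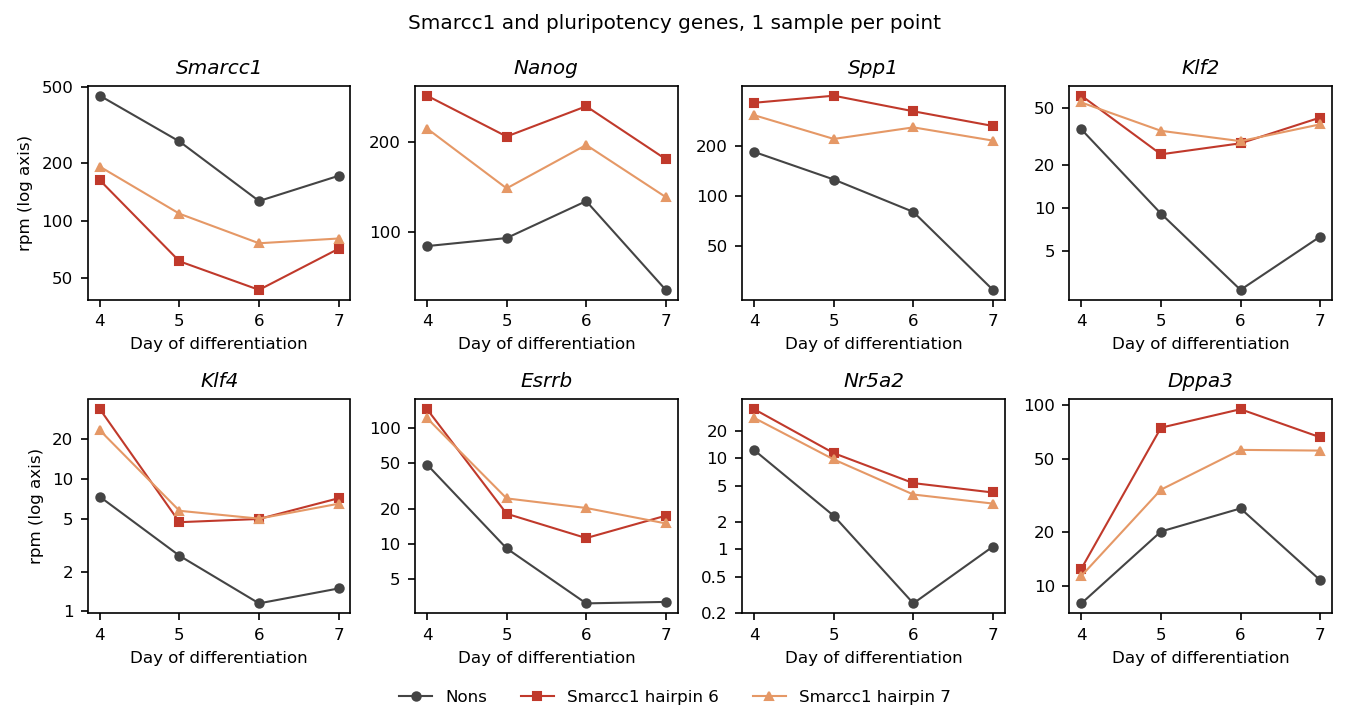
Level of *Smarcc1* and 7 pluripotency genes in every sample, in rpm on a log axis, against the day of differentiation, with 1 line each for Nons, hairpin 6 and hairpin 7. Each point is 1 sample. *Smarcc1* is below Nons in all 8 knockdown samples, and the other genes are above same-day Nons in all 8.

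Genes shared by naive and primed cells moved less. Of the 16 general pluripotency factors 6 were called higher and 0 lower, with a median log2 fold change of 0.49, and 4 were called with the replicate block. The count was 1 without day 7 and 12 without days 5 and 6. *Nanog*, the homeobox factor that stabilises self-renewal, was at 90.1, 95.8, 127 and 64.5 rpm in Nons and at 131, 202 and 284 rpm in the knockdown samples. All 8 knockdown samples lay above all 4 Nons samples (log2 fold change = 1.09, SE = 0.15, adjusted *p* = 5.91e-04). *Sox2*, the partner of *Pou5f1*, was at 264, 159, 62.5 and 51.6 rpm in Nons and 74.3, 146 and 282 rpm in the knockdown samples. It differed little on days 4 and 5 and more on days 6 and 7 (log2 fold change = 0.45, SE = 0.11, adjusted *p* = 0.0188). *Dppa2* (1.00), *Dppa4* (0.79) and *Zfp42* (0.83), which mark undifferentiated mESCs, rose in log2 fold change. *Pou5f1* was at 261, 971 and 1450 rpm in the knockdown samples, above same-day Nons in 4 and below it in 4 samples, and was not called (log2 fold change = 0.05, SE = 0.18, adjusted *p* = 0.899). The call of *Sox2* was lost with the replicate block and without hairpin 6, hairpin 7, day 6 or day 7 (adjusted *p* = 0.0726 to 0.205). The calls of *Dppa2*, *Dppa4* and *Zfp42* were lost without day 7 (adjusted *p* = 0.0506 to 0.0679).

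Some members of the LIF pathway, which sustains naive cells through Stat3, were higher as well. Of 17 genes tested 7 were called higher and 0 lower, with a median log2 fold change of 0.60. With the replicate block 4 were called, and the count was 4 without day 6, 1 without day 7 and 13 without days 5 and 6. The receptor chain *Lifr* was at 36.7, 8.15, 5.28 and 7.03 rpm in Nons and at 8.9, 13.6 and 71.4 rpm in the knockdown samples (log2 fold change = 0.86, SE = 0.14, adjusted *p* = 0.00202). Its partner *Il6st*, which encodes gp130, rose as well (log2 fold change = 0.78, SE = 0.14, adjusted *p* = 0.00254). Both were higher than same-day Nons in 8 of 8 samples, and the ranges of *Lifr* overlapped. The calls of *Lifr* and *Il6st* were lost without day 7 (adjusted *p* = 0.0515 and 0.0631).

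The formative and primed epiblast genes went both ways. Of 21 tested 3 were higher (1 without day 6 or day 7; 6 without days 5 and 6, block 1) and 3 lower (block 2), with a median log2 fold change of -0.01. *Fgf5*, the classical marker of the primed epiblast, was at 26.4, 53.2, 41.9 and 23.4 rpm in Nons and at 7.99, 14.3 and 24.6 rpm in the knockdown samples. It peaked on day 5 in both groups and was below same-day Nons in all 8 samples (log2 fold change = -1.31, SE = 0.25, adjusted *p* = 0.0045). *Cd24a*, a surface protein that increases as naive cells become primed, was at 36.2, 75.5, 155 and 239 rpm in Nons and 15, 53.7 and 109 rpm in the knockdown samples, lower in 8 of 8 (log2 fold change = -1.07, SE = 0.15, adjusted *p* = 5.11e-04). *Wnt8a*, a Wnt ligand of the early epiblast, was at 17.8, 7.14, 0.573 and 0.533 rpm in Nons and 2.06, 9.72 and 22.4 rpm in the knockdown samples, higher in all 8 (adjusted *p* = 6.26e-05).

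Genes of germ cells and meiosis were the other large group of rises. Many of them are kept silent in body cells by DNA methylation of their promoters and by the repressor PRC1.6, whose subunits Mga and Max bind the E-box CACGTG and whose subunit E2f6 binds TTCCCGC. Of the 35 tested 21 were called higher and 0 lower, with a median log2 fold change of 0.67, and 15 were called with the replicate block. The count was 4 without day 7. List medians on days 4, 5, 6 and 7 were 0.40, 0.21, 0.76 and 1.26.

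*Stra8*, which is induced by retinoic acid and starts meiosis, was at 12.8, 19, 8.84 and 5.06 rpm in Nons and at 25.3, 162 and 310 rpm in the knockdown samples. The groups did not overlap, and the difference was near 2-fold on day 4 and more than 4-fold in each knockdown sample on later days (log2 fold change = 3.56, SE = 0.28, adjusted *p* = 7.79e-06). *Stag3*, a cohesin subunit of meiotic chromosomes, was at 39.6, 31.4, 27.5 and 22.1 rpm in Nons and at 38, 60.5 and 84.6 rpm in the knockdown samples, higher than same-day Nons in all 8 (log2 fold change = 1.06, SE = 0.16, adjusted *p* = 9.54e-04). *Hormad1*, which surveys chromosome pairing, was at 140, 64, 16.6 and 5.01 rpm in Nons and 28.4, 64.6 and 174 rpm in the knockdown samples. Its level was lower on each later day in Nons, and all 8 knockdown samples were above same-day Nons (log2 fold change = 1.33, SE = 0.22, adjusted *p* = 0.0018). *Piwil2* (1.11) and *Tdrd9* (1.53), which act in the piRNA pathway against transposons, and the meiotic cohesins *Rec8* (1.27) and *Smc1b* (1.09) rose too, in log2 fold change. The calls of *Stag3*, *Hormad1*, *Rec8* and *Smc1b* were lost without day 7 (adjusted *p* = 0.0749 to 0.122).

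The defining germ cell markers moved less than these. *Dazl*, an RNA-binding protein of germ cells, was at 336, 52.5, 19 and 19.9 rpm in Nons and at 31.4, 55.5 and 616 rpm in the knockdown samples, higher in 8 of 8 (log2 fold change = 0.91, SE = 0.17, adjusted *p* = 0.00415). *Ddx4*, the helicase Vasa, was at 62.8, 66.7, 56.7 and 63.4 rpm in Nons and 53.6, 84.5 and 110 rpm in the knockdown samples. Hairpin 7 on day 5 was below Nons and the other 7 samples were above it (log2 fold change = 0.42, SE = 0.12, adjusted *p* = 0.0449). The summed level of the 38 germline genes in the table was 1590, 874, 577 and 476 rpm in Nons, 2340, 1840, 1340 and 1310 rpm with hairpin 6 and 2160, 1180, 1280 and 1280 rpm with hairpin 7 on days 4, 5, 6 and 7, with *Dazl* the gene with the most reads. Of these genes 1 was under 1 rpm in all 12 samples. Whether a few cells or many carried these transcripts was not tested. *Dmrt1*, a regulator of male germ cells that is not on the list, was at 37.5, 35.9, 18 and 12.7 rpm in Nons and 113, 149 and 184 rpm in the knockdown samples, without overlap (log2 fold change = 2.66, SE = 0.17, adjusted *p* = 3.12e-06). The call of *Dazl* was lost without day 7 (adjusted *p* = 0.132). The call of *Ddx4* was lost with the replicate block and without hairpin 6, hairpin 7, day 4, day 6 or day 7 (adjusted *p* = 0.0567 to 0.362).

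**Figure D3:**
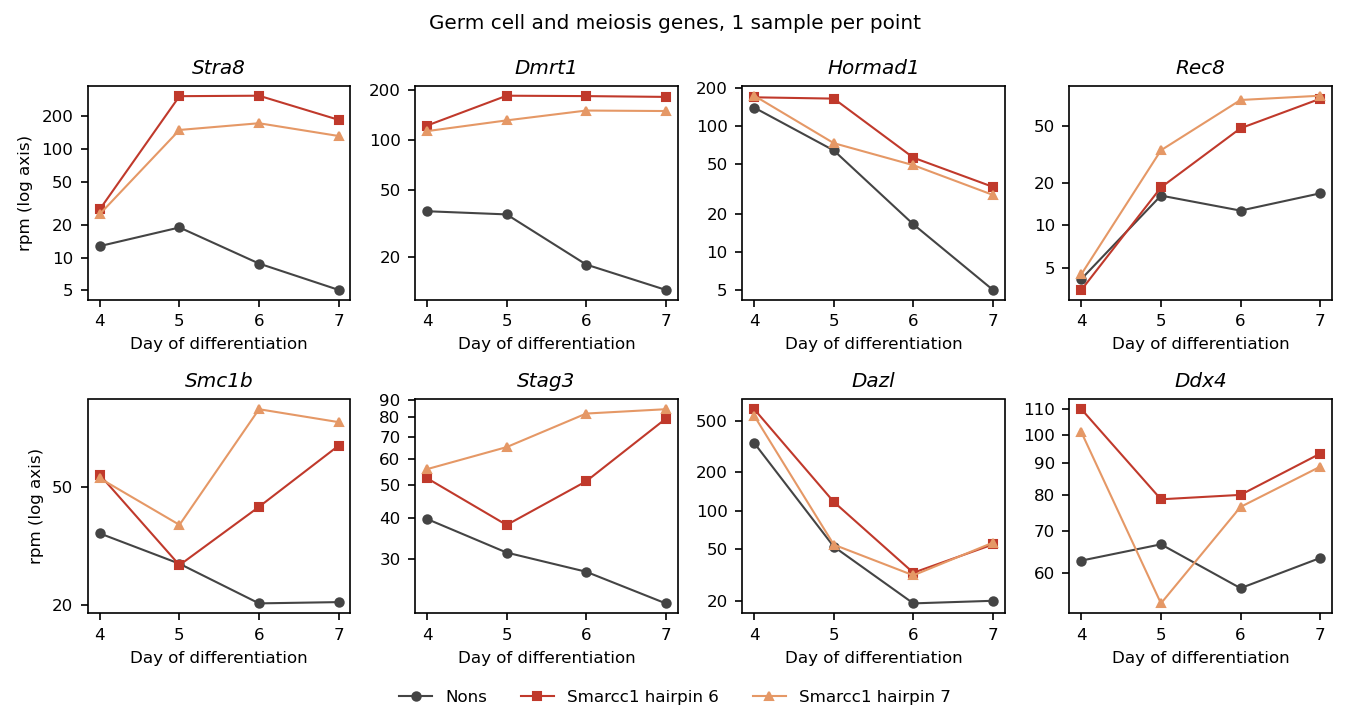
Level of 8 germ cell and meiosis genes in every sample, in rpm on a log axis, against the day of differentiation, with lines for Nons, hairpin 6 and hairpin 7. Each point is 1 sample. *Stra8* and *Dmrt1* separate fully from Nons, while *Dazl* and *Ddx4* differ less.

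Promoters of these genes are shown because members of the list rose together. RefSeq windows (GRCm38.p6, 250 bases before to 50 after the start site) were found for 19 of the 21 germline genes called higher. The letters CACGTG, which read the same on both strands, were in 9 of the 19 (47.4%) and in 5 of 13 germline genes with a window that were not called (38.5%). They were in 12% of the tested genes with a window and in 8.09% of all 27025 genes with a window. A gene with several windows was counted if any of them held the letters. TTCCCGC on either strand was in 26.3% of the germline genes called higher and 30.8% of those not called. It was in 10.2% of genes tested and 5.29% of all genes with a window. The E-box was thus more frequent in the list than in promoters at large whether or not a gene was called. Of 7 motifs searched on both strands, the others were GGCGGGA (15.8% of the germline genes called higher, 24.8% of genes tested and 12.7% of all genes with a window), GGAATG (0%, 14.4% and 16.6%), CCACACCC (15.8%, 4.51% and 4.09%), AGGTCA (21.1%, 14.8% and 18.1%) and 1 fixed form, with 10 letters, of the variable CArG box that SRF binds (0%, 0.0216% and 0.0777%). A match is a description of the letters and not of a bound site.

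Hormad1: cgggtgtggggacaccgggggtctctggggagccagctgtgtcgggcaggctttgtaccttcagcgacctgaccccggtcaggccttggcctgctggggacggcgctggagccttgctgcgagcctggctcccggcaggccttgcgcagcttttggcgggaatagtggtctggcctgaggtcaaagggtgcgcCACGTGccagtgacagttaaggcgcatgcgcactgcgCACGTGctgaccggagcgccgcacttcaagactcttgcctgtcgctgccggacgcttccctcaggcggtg
Tdrd9: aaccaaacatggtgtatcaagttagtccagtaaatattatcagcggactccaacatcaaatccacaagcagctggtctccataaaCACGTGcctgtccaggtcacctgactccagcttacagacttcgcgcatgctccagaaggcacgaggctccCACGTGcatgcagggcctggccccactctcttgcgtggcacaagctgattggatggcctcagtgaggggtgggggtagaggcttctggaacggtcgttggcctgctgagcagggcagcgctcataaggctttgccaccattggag
Ddx4: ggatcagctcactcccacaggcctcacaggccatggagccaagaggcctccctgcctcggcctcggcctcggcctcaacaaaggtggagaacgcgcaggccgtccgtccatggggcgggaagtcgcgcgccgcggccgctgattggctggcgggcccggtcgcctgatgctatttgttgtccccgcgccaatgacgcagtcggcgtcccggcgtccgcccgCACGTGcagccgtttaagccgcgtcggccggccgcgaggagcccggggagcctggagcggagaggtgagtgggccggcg
Stra8: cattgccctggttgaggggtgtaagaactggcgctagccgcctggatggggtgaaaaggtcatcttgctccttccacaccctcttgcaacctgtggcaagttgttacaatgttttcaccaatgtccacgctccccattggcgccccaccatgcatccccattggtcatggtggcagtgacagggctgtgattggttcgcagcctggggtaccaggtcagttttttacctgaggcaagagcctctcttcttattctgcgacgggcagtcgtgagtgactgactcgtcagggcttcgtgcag
The window of *Hormad1* and that of *Tdrd9* hold CACGTG 2 times, that of *Ddx4* once, and that of *Stra8*, the largest rise of the list, does not hold it. Capitals mark the matches. *Hormad1* is at chr3:95559427-95559726 on the + strand, *Tdrd9* at chr12:111971309-111971608 on the + strand, *Ddx4* at chr13:112652261-112652560 on the - strand and *Stra8* at chr6:34920698-34920997 on the + strand.

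Calls were also counted by how a gene moves during differentiation. Genes were sorted by their change from day 4 to day 7 in the *Smarca4* knockdown samples, which are no part of the contrast. Of the 576 genes whose level went down by over 2 on the log2 scale, 41.8% were higher in *Smarcc1* knockdown than in Nons and 2.08% lower. Of the 1381 that went down by 1 to 2, 14.4% were higher and 1.59% lower. Among the 8455 genes that moved by under 1 the shares were 4.84% and 1.34%. Among the 1739 that went up by 1 to 2 they were 5.18% and 5.46%, and among the 1145 that went up by over 2 they were 5.59% and 14.6%. Higher calls were thus most frequent among genes that go down with time and lower calls among genes that go up. With the replicate block 152 of the 576 genes were higher, against 241 without it. Of the 1145 genes 71 were lower with the block, against 167 without it. Of the naive factors 12 of 18 went down and 3 up by over 1, of the germline genes 10 of 35 went down and 11 up by over 1, and of the actin genes 1 of 27 went down and 21 up by over 1. No test of these shares was made.

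**Figure D4:**
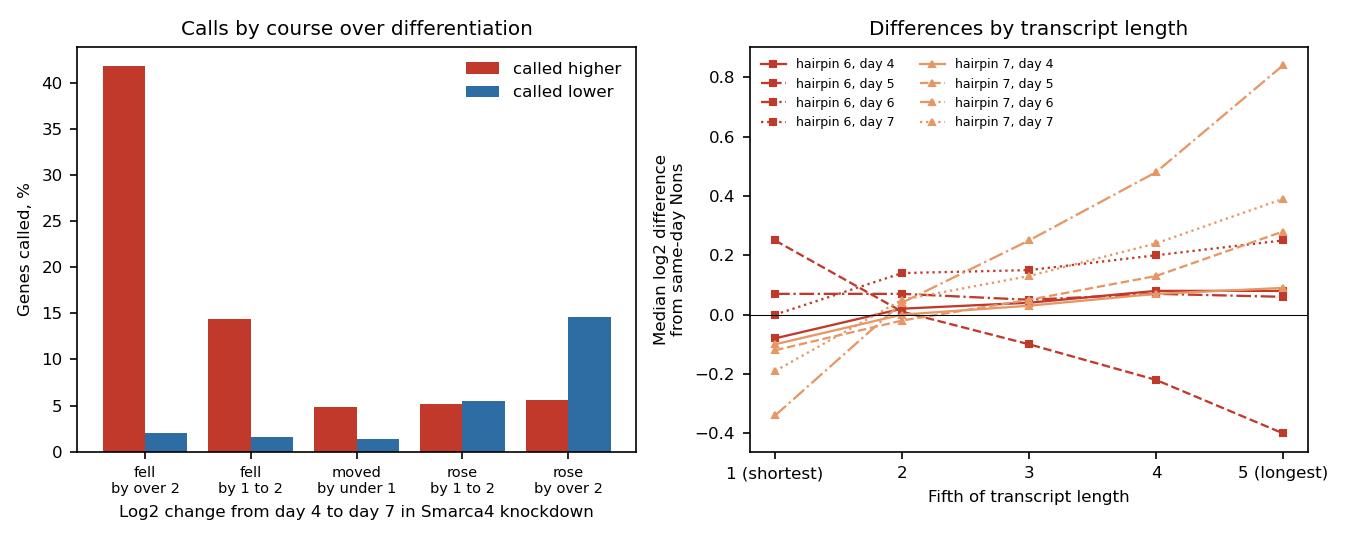
The left panel gives the percent of genes called higher or lower in *Smarcc1* knockdown than in Nons, by change over days in the *Smarca4* series. Its bars start at 0. The right panel gives the median log2 difference from same-day Nons by class of transcript length, with a line for each knockdown sample. Of the genes that went down by over 2 on the log2 scale, 41.8% are called higher. Of those that went up by over 2, 14.6% are called lower. From the shortest to the longest class, the line of hairpin 7 on day 6 goes from -0.34 to 0.84. That of hairpin 6 on day 5 goes the other way, from 0.25 to -0.40.

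Several signalling pathways contained strong rises in 1 or a few members. Hedgehog signalling acts through the receptor *Ptch1*, which restrains it and is also its target, and the transcription factors of the Gli family. Of 10 genes tested 4 were called higher and 0 lower, 2 with the replicate block, and the count was 2 without day 7. The list median was 0.14 and 0.00 to 2 decimals after quantile normalization. *Gli1*, the most direct target, was at 11.4, 4.35, 2.42 and 2.66 rpm in Nons and at 17.4, 24.9 and 39.3 rpm in the knockdown samples. All 8 knockdown samples lay above all Nons samples, and the difference was smallest on day 4 (log2 fold change = 2.59, SE = 0.19, adjusted *p* = 5.57e-06). *Ptch1* was at 40.4, 44.9, 14 and 17.6 rpm in Nons and 45.9, 88.1 and 125 rpm in the knockdown samples, without overlap, although the hairpins differed on day 5 (log2 fold change = 1.59, SE = 0.35, adjusted *p* = 0.0107). The call of *Ptch1* was lost with the replicate block and without hairpin 7, day 6 or day 7 (adjusted *p* = 0.0632 to 0.235).

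Nodal signalling, which maintains the primed epiblast and patterns the embryo, held 5 higher and 0 lower (1 without hairpin 7; 2 without the *Smarca4* hairpin 4 sample of day 5 or days 5 and 6 or quantile normalized) genes of 21 tested, 3 with the replicate block, at a median log2 fold change of 0.17. The count was 2 without hairpin 6, 3 without hairpin 7, 2 without day 7 and 8 without days 5 and 6. The feedback inhibitor *Lefty2* was at 43.5, 56.1, 66.5 and 35.4 rpm in Nons and at 52.1, 118 and 152 rpm in the knockdown samples. It was close to Nons on day 4 and well above it on days 6 and 7 with both hairpins (log2 fold change = 1.04, SE = 0.11, adjusted *p* = 6.99e-05). *Lefty1*, its paralogue, was below Nons on day 4 in both hairpins and above it on the other days (log2 fold change = 0.67, SE = 0.15, adjusted *p* = 0.0107). The ligand *Nodal* was at 103, 61.6, 77.3 and 57.9 rpm in Nons and 69.1, 103 and 171 rpm in the knockdown samples, higher in 8 of 8 (log2 fold change = 0.56, SE = 0.12, adjusted *p* = 0.00897). The call of *Lefty1* was lost without hairpin 7 or day 7 (adjusted *p* = 0.114 and 0.687). The call of *Nodal* was lost with the replicate block and without hairpin 6, day 4 or day 7 (adjusted *p* = 0.0516 to 0.0904).

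The retinoic acid list held calls in both directions. Of 18 tested 5 were higher and 1 lower (0 without hairpin 6 or day 7, block 0), 5 higher with the replicate block, the list median was 0.50, and the count of higher genes was 8 without days 5 and 6. *Aldh1a2*, which makes retinoic acid, was at 2.29, 0.861, 0.127 and 0.107 rpm in Nons and 0.712, 2.6 and 5.16 rpm in the knockdown samples, higher in 8 of 8 (log2 fold change = 2.48, SE = 0.26, adjusted *p* = 7.42e-05). *Aldh1a2* passed the minimum level only through the *Smarcc1* samples, so its fold change, *p*-value and call depend on the filter. The counts of higher genes in the list, which include it, depend on the filter as well. *Cyp26a1*, which degrades retinoic acid and is itself induced by it, was at 1.16, 1.06, 0.954 and 3.3 rpm in Nons and 2.27, 4.9 and 7.74 rpm in the knockdown samples, again higher in all 8 (log2 fold change = 1.67, SE = 0.22, adjusted *p* = 3.36e-04). *Dhrs3*, which turns retinaldehyde back to retinol, was lower in all 8 (log2 fold change = -1.14, SE = 0.25, adjusted *p* = 0.0115). *Stra8* is a member of this list too. The call of *Dhrs3* was lost with the replicate block and without hairpin 6 or day 7 (adjusted *p* = 0.0561 to 0.0862). *Aldh1a2* was below the minimum level to be tested without day 4 or day 5.

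In the Notch list 4 of 18 genes were higher and 1 lower (0 without either hairpin, day 6, day 7 or days 5 and 6, block 0), 2 higher with the replicate block, with a median of 0.27, and the count of higher genes was 2 without hairpin 7, 1 without day 7 and 7 without days 5 and 6. The ligand *Dll1* was at 30.3, 9.62, 1.02 and 1.49 rpm in Nons and 6.94, 13.3 and 31.2 rpm in the knockdown samples. The groups were alike on day 4 and apart on days 6 and 7, where Nons was lowest (log2 fold change = 1.76, SE = 0.23, adjusted *p* = 3.65e-04). Of 29 Wnt genes 4 were higher and 0 lower (1 without hairpin 7 or day 5 or quantile normalized; 3 without days 5 and 6), 3 with the replicate block, at a median of 0.20, and the count was 7 without day 5, 2 without day 7, 9 without days 5 and 6 and 2 after quantile normalization. The receptor *Fzd10* was at 6.01, 3.49, 1.53 and 2.5 rpm in Nons and 6.55, 7.52 and 9.2 rpm in the knockdown samples, without overlap (log2 fold change = 1.40, SE = 0.18, adjusted *p* = 3.16e-04). Of 26 FGF and ERK feedback genes 5 were higher and 1 lower, the latter being *Fgf5* (2 without hairpin 7, day 6 or the *Smarca4* hairpin 4 sample of day 5; 3 without day 5; 4 without days 5 and 6 or quantile normalized, block 1), at a median of 0.03 (-0.02 after centring and -0.09 after quantile normalization). The higher count was 3 without hairpin 6, 3 without day 4, 2 without day 6, 1 without day 7, 8 without days 5 and 6 and 3 after quantile normalization, and 1 gene was higher with the replicate block.

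Markers of differentiated lineages were next, with different balances of higher and lower calls. In the neural list 7 of 23 genes were higher, 5 with the replicate block, and 3 lower (0 without day 6 or day 7; 1 without hairpin 7; 5 without days 5 and 6; 6 quantile normalized, block 1), at a median of 0.60. The higher count was 11 without days 5 and 6. *Neurog3*, a proneural factor of the endocrine pancreas and of neural cells, was at 1.93, 1.37, 0.445 and 0.107 rpm in Nons and 5.75, 7.82 and 13.2 rpm in the knockdown samples. Nons was near 0 on day 7 while both hairpins were not, and the groups did not overlap (log2 fold change = 3.74, SE = 0.25, adjusted *p* = 4.25e-06). *Sox1*, a marker of neural progenitors, was at 3.71, 2.84, 1.34 and 0.533 rpm in Nons and 5.08, 8.44 and 16.6 rpm in the knockdown samples, without overlap (log2 fold change = 2.40, SE = 0.33, adjusted *p* = 5.48e-04). *Stmn2*, a protein of neurons, was at 240, 61, 82.7 and 94.3 rpm in Nons and 21.2, 46.2 and 230 rpm in the knockdown samples and was called lower (log2 fold change = -0.77, SE = 0.20, adjusted *p* = 0.0268). *Pax6*, another progenitor marker, was not called (log2 fold change = 0.26, SE = 0.14, adjusted *p* = 0.312). The summed level of the 35 neural genes was 543, 306, 385 and 367 rpm in Nons, 650, 329, 260 and 284 rpm with hairpin 6 and 619, 379, 339 and 277 rpm with hairpin 7 on days 4, 5, 6 and 7, with *Stmn2* the gene with the most reads, and 9 of them were under 1 rpm in all 12 samples. On day 7 the sum was lower than Nons with both hairpins, although more of the genes were called higher than lower. The call of *Stmn2* was lost with the replicate block and without hairpin 7, day 6 or day 7 (adjusted *p* = 0.129 to 0.647).

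In the blood and endothelial list 6 of 11 genes tested were higher and 0 lower, 4 with the replicate block, at a median of 0.71, and the count was 3 without hairpin 6, 2 without day 7, 3 without days 5 and 6 and 2 after quantile normalization. Its largest rise, *Sox18* (log2 fold change = 2.81), passed the minimum level only through the *Smarcc1* samples, so the count depends on the filter. *Pecam1*, an adhesion protein of endothelium that mESCs also carry, was at 54.9, 30.8, 6.74 and 3.25 rpm in Nons and 22.8, 51 and 70.1 rpm in the knockdown samples. Nons was lower from day 5 and the hairpins from day 6, and all 8 were above same-day Nons (log2 fold change = 1.69, SE = 0.14, adjusted *p* = 1.20e-05). *Tal1*, a defining factor of blood and endothelium, was not called (log2 fold change = 0.44, SE = 0.24, adjusted *p* = 0.298). The sum of the 25 genes was 101, 64.5, 33.2 and 44.9 rpm in Nons, 115, 107, 70.8 and 83.7 rpm with hairpin 6 and 113, 117, 84.6 and 73.1 rpm with hairpin 7, with *Pecam1* the gene with the most reads, and 9 genes were under 1 rpm in all 12 samples.

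Among 20 primitive streak genes measured, 9 were under 1 rpm in all 12 samples, among them the defining genes *T* and *Mixl1*. Of the 6 tested 3 were higher (5 without days 5 and 6, block 2). In the primitive and visceral endoderm list 5 of 19 were higher and 1 lower (0 without hairpin 7, day 6 or day 7, block 0), at a median of 0.26. The count of higher genes was 0 without hairpin 7, 3 without day 4, 2 without day 6, 0 without day 7 and 3 after quantile normalization, and the replicate block left none in limma, with 6 of the list at an unadjusted *p* under 0.05. *Gata4*, a factor of extraembryonic endoderm, was at 0.619, 0.658, 0.891 and 1.6 rpm in Nons and 0.589, 1.88 and 7.41 rpm in the knockdown samples. It was near Nons on day 4 and above it on days 6 and 7 with both hairpins (log2 fold change = 1.14, SE = 0.23, adjusted *p* = 0.00652). The sum of the 32 endoderm genes was 1210, 900, 1590 and 3520 rpm in Nons, 1490, 824, 1350 and 2610 rpm with hairpin 6 and 1430, 1040, 1890 and 2690 rpm with hairpin 7, with *Lrp2* the gene with the most reads, and 7 were under 1 rpm in all 12 samples. The call of *Gata4* was lost with the replicate block and without hairpin 7, day 6 or day 7 (adjusted *p* = 0.0522 to 0.262).

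Genes of the actin cytoskeleton were the longest group of falls among the lists described here. Serum response factor (SRF) drives many of them, and their products build stress fibres in spread and contractile cells. Of 27 genes tested 10 were called lower and 1 higher (0 without hairpin 7, day 4, day 6 or day 7 or quantile normalized, block 0), with a median log2 fold change of -0.32 against 0.06 for all genes, and 6 were lower with the replicate block. The count of lower genes was 6 without hairpin 7, 6 without day 6 and 3 without day 7. *Tagln*, an actin-bundling protein of smooth muscle and fibroblasts, was at 10.4, 35.3, 1310 and 2740 rpm in Nons and 6.89, 141 and 963 rpm in the knockdown samples. Levels were far higher on day 7 than on day 4 in both groups, and every knockdown sample was below same-day Nons (log2 fold change = -1.46, SE = 0.16, adjusted *p* = 8.32e-05). *Cnn1*, a calponin of contractile cells, was at 8.12, 29.9, 151 and 172 rpm in Nons and 3.19, 31.9 and 87.3 rpm in the knockdown samples, lower in 8 of 8 (log2 fold change = -1.19, SE = 0.15, adjusted *p* = 3.52e-04). The tropomyosin *Tpm4*, which coats actin filaments, was at 88.7, 225, 613 and 883 rpm in Nons and 57.4, 216 and 536 rpm in the knockdown samples (log2 fold change = -0.74, SE = 0.13, adjusted *p* = 0.00231). It too was higher on later days in both groups and lower than same-day Nons in all 8 knockdown samples.

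Genes of fibroblasts and mesenchymal matrix gave 4 lower and 1 higher (0 without hairpin 7, day 6 or day 7; 2 without hairpin 6; 3 without day 5; 5 without days 5 and 6, block 0) of 14 tested, 3 lower with the replicate block, at a median of 0.26. The count of lower genes was 2 without day 4, 2 without day 5, 1 without day 6, 2 without day 7 and 2 without days 5 and 6. The sum of the 25 genes in the table was 71.2, 114, 1480 and 3470 rpm in Nons, 60.1, 47.3, 504 and 1420 rpm with hairpin 6 and 58.8, 90.1, 422 and 1220 rpm with hairpin 7 on days 4, 5, 6 and 7. *Tagln* was the gene with the most reads, and 5 genes were under 1 rpm in all 12 samples. *Dcn*, a small proteoglycan that defines fibroblasts, was at 5.28, 3.39, 5.85 and 3.52 rpm in Nons and 0.0561, 0.724 and 1.37 rpm in the knockdown samples, the lowest value being 0.9 of a read. All 8 samples were below every Nons sample (log2 fold change = -2.95, SE = 0.49, adjusted *p* = 0.00194). *Col1a1*, the main chain of fibrillar collagen, was at 1.57, 1.06, 2.04 and 20.2 rpm in Nons and 1.25, 4.96 and 60.4 rpm in the knockdown samples, higher in 8 of 8 (log2 fold change = 1.32, SE = 0.38, adjusted *p* = 0.0423). *Dcn* passed the minimum level only through Nons, so its fold change and *p*-value and the counts of lower genes in the list depend on the filter. The part of fibroblast-like cells in the fall of actin genes was not tested. The call of *Col1a1* was lost with the replicate block and without hairpin 7, day 4, day 6, day 7 or the *Smarca4* hairpin 4 sample of day 5 (adjusted *p* = 0.0572 to 0.258). *Dcn* was below the minimum level to be tested without day 4, day 5, day 6 or the *Smarca4* hairpin 4 sample of day 5.

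Some epithelial genes fell too, although most of those tested were not called. Keratins 8, 18, 19 and 7 form the filaments of simple epithelia, including trophoblast. Of 9 keratins tested 4 were lower and 0 higher, at a median of -0.63, 2 with the replicate block, and the count was 2 without hairpin 7, 2 without day 6 and 2 without day 7. *Krt19* was at 4.48, 5.37, 152 and 441 rpm in Nons and 1.55, 13.2 and 92.5 rpm in the knockdown samples. Levels were far higher after day 5 in both groups and stayed below same-day Nons in all 8 samples (log2 fold change = -1.82, SE = 0.22, adjusted *p* = 1.87e-04). *Krt7* was at 2.18, 6.58, 34.2 and 154 rpm in Nons and 1.37, 9.02 and 69.6 rpm in the knockdown samples, lower in all 8 (log2 fold change = -1.02, SE = 0.15, adjusted *p* = 6.84e-04). *Krt8* (-0.71) and *Krt18* (-0.77) fell in log2 fold change too. Of 27 genes of junctions and epithelial polarity 6 were lower and 0 higher, at a median of -0.23, 5 with the replicate block, and the count was 12 without days 5 and 6. *Cldn7*, a claudin of tight junctions, was at 4.11, 40.5, 129 and 158 rpm in Nons and 2.05, 40.1 and 84 rpm in the knockdown samples, lower in 8 of 8 (log2 fold change = -0.97, SE = 0.17, adjusted *p* = 0.00281). *Crb3*, which sets apical polarity, and *Ap1m2*, which sorts proteins to the basolateral membrane, were lower in all 8 samples as well (-1.02 and -0.94). The call of *Krt8* was lost with the replicate block and without hairpin 7, day 6 or day 7 (adjusted *p* = 0.0863 to 0.184). The call of *Krt18* was lost with the replicate block and without hairpin 6, hairpin 7, day 6 or day 7 (adjusted *p* = 0.0525 to 0.176).

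In the list of trophoblast and simple epithelium 5 genes were higher and 5 lower of 17 tested, 3 and 2 with the replicate block, at a median of 0.22. The count of higher genes was 2 without day 7, and that of lower genes 3 without hairpin 6, 3 without hairpin 7, 2 without day 6 and 2 without day 7. Its sum over 24 genes was 679, 490, 1740 and 4670 rpm in Nons, 1260, 582, 1010 and 2650 rpm with hairpin 6 and 1120, 914, 1310 and 2640 rpm with hairpin 7, with *Peg10* the gene with the most reads. *Gata3*, a defining trophoblast factor, was not called (log2 fold change = -0.01, SE = 0.25, adjusted *p* = 0.986), and *Cdx2* did not exceed 1.3 rpm in any of the 12 samples.

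Targets of p53, the DNA damage response factor, gave 6 lower and 2 higher (0 without day 7; 1 without hairpin 6, day 4 or day 6; 5 without days 5 and 6, block 1) of 25 genes tested, 3 lower with the replicate block, at a median of -0.14. The count of lower genes was 3 without hairpin 7, 3 without day 6, 2 without day 7 and 12 without days 5 and 6. *Perp*, a p53 target that also builds desmosomes, was at 22.6, 19.2, 97.5 and 307 rpm in Nons and 7.45, 16.5 and 50.5 rpm in the knockdown samples. No knockdown sample came near the Nons values of days 6 and 7 (log2 fold change = -1.71, SE = 0.14, adjusted *p* = 8.74e-06). *Phlda3*, which restrains Akt, was at 57.5, 37.7, 108 and 168 rpm in Nons and 29.7, 38.7 and 105 rpm in the knockdown samples, lower in all 8 (log2 fold change = -0.77, SE = 0.13, adjusted *p* = 0.00185). *Plk2*, a stress-induced kinase, fell (log2 fold change = -0.80, SE = 0.11, adjusted *p* = 4.34e-04). *Cyr61*, a matricellular target of YAP, was the stronger of 2 lower Hippo and YAP targets of 20 (1 without hairpin 6, day 4 or day 7; 5 without days 5 and 6, block 1; log2 fold change = -0.87, SE = 0.14, adjusted *p* = 0.00161), at a list median of -0.18. The call of *Plk2* was lost without day 7 (adjusted *p* = 0.0511).

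**Figure D5:**
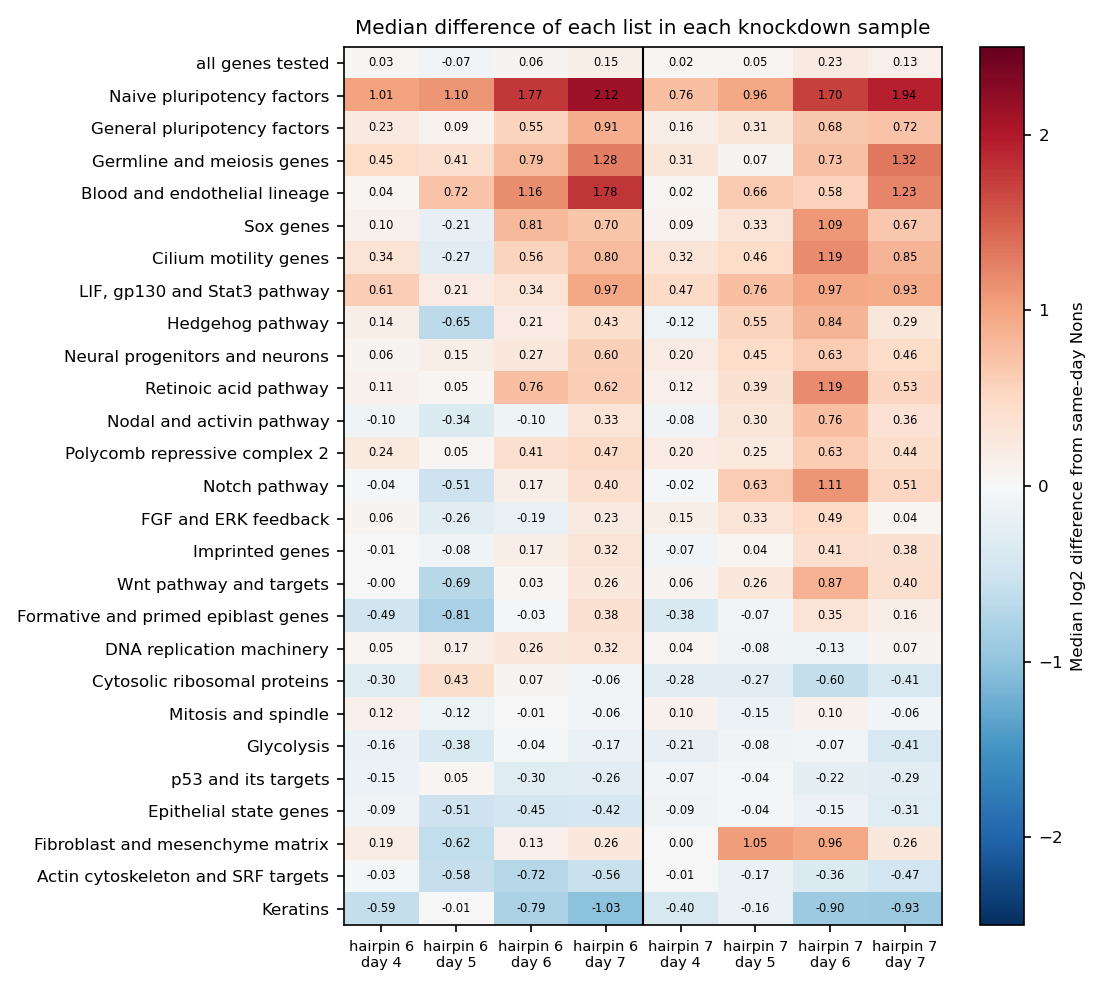
Median log2 difference of each list from the Nons sample of the same day, for each of the 8 knockdown samples (columns, by hairpin and day), with colour giving the size and sign. Naive pluripotency and germline lists are positive in all 8 samples, and the keratin list has its most negative values on days 6 and 7.

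Calls among chromatin regulators are given against 7.54% higher and 3.08% lower of all genes. Of 13 DNA methylation and TET enzymes 3 (23.1%) were higher (1 without day 6 or day 7; 8 without days 5 and 6, block 1) and 0 lower, at a median of 0.39. *Dnmt3l*, the cofactor of the de novo methyltransferases, was at 1320, 365, 186 and 228 rpm in Nons and 461, 638 and 1470 rpm in the knockdown samples. It was lower after day 4 in both groups and higher than same-day Nons in all 8 samples (log2 fold change = 0.98, SE = 0.13, adjusted *p* = 3.26e-04). *Dnmt3a*, a de novo methyltransferase, was higher (log2 fold change = 0.81, SE = 0.16, adjusted *p* = 0.00672). Of 12 genes of PRC2, which methylates lysine 27 of histone H3, 3 (25.0%) were higher (0 without day 4, day 6 or day 7; 1 without hairpin 7; 6 without days 5 and 6, block 0) and 0 lower, at a median of 0.36. With the replicate block none was called in limma, with 6 of the list at an unadjusted *p* under 0.05. Of 22 PRC1 genes 3 (13.6%) were higher (0 without day 7; 1 without hairpin 7, day 4 or day 6; 11 without days 5 and 6, block 1) and 1 lower (0 without hairpin 6, day 6 or day 7, block 0), at a median of 0.20. Among 22 table entries of other remodellers (21 genes, *Srcap* being entered 2 times) none was called in limma (higher genes: 2 without hairpin 6 or day 5; 12 without days 5 and 6), with 3 at an unadjusted *p* under 0.05, at a list median of 0.33 that was 0.16 with the length tilt removed, and of 15 entries for 14 genes of H3K9 methylation 1 was higher (0 without day 7; 3 without day 5; 4 without hairpin 6; 9 without days 5 and 6, block 1) and 0 lower. The call of *Dnmt3a* was lost with the replicate block and without day 6 or day 7 (adjusted *p* = 0.0583 to 0.147).

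Of 37 imprinted genes 6 were higher and 0 lower (1 without day 5 or the *Smarca4* hairpin 4 sample of day 5 or quantile normalized; 3 without days 5 and 6), 5 with the replicate block, at a median of 0.08, so that most of the list stayed near all genes. The count was 3 without day 7 and 11 without days 5 and 6. *Peg12*, a paternally expressed gene of the Prader-Willi region, was at 1.2, 2.63, 0.636 and 0.0533 rpm in Nons and 2.27, 3.79 and 4.11 rpm in the knockdown samples. It was nearly lost in Nons on day 7 and kept in all knockdown samples (log2 fold change = 2.58, SE = 0.22, adjusted *p* = 1.67e-05). *Usp29*, a paternally expressed deubiquitinase, was higher in all 8 samples (log2 fold change = 1.57, SE = 0.20, adjusted *p* = 3.16e-04). Which parental copy the reads came from was not analysed here.

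Genes on the X chromosome gave calls in both directions. Of 485 X-linked genes tested 39 (8.04%) were higher and 45 (9.28%) lower, against 7.52% and 2.84% on the autosomes. With the replicate block 24 X-linked genes were higher and 15 lower, so that lower calls no longer outnumbered higher ones. On the autosomes the block left 430 higher and 136 lower. The median log2 fold change was -0.04 on the X and 0.07 on the autosomes. Among genes that went up by over 2 in the *Smarca4* series 29.5% of 44 X-linked and 14.0% of 1101 autosomal genes were lower, and among genes that moved by under 1 the shares were 6.21% of 290 and 1.16% of 8160. These shares come from the fit without the replicate block, and the difference between them was not tested. *Heph*, a copper oxidase that exports iron, was at 1.6, 6.79, 6.94 and 3.04 rpm in Nons and 0.274, 1.13 and 1.56 rpm in the knockdown samples, without overlap (log2 fold change = -2.05, SE = 0.31, adjusted *p* = 0.00102). *Heph* passed the minimum level only through Nons, so its fold change and *p*-value depend on the filter. *Tspan7*, a tetraspanin, was at 4.59, 29, 37.5 and 48 rpm in Nons and 1.1, 16.9 and 24.3 rpm in the knockdown samples, lower in 8 of 8 (log2 fold change = -1.21, SE = 0.21, adjusted *p* = 0.00229). *Msn*, which links actin to the membrane, was lower in all 8 as well (log2 fold change = -0.90, SE = 0.18, adjusted *p* = 0.00519). *Xist*, the RNA that coats the inactive X in females, was at 22.5, 7.95, 9.1 and 8.85 rpm in Nons and 13.8, 21.6 and 25.7 rpm in the knockdown samples of these male cells. It was above same-day Nons in 8 of 8, with ranges that overlapped through Nons of day 4 (log2 fold change = 0.87, SE = 0.23, adjusted *p* = 0.0289). The strand of the reads is not known, so *Xist* and its antisense gene *Tsix* cannot be told apart here. The call of *Msn* was lost without day 7 (adjusted *p* = 0.106). The call of *Xist* was lost with the replicate block and without hairpin 7, day 6 or day 7 (adjusted *p* = 0.0782 to 0.21).

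Many genes of motile cilia were higher. Of 20 tested 9 were higher and 1 lower (0 without hairpin 6, day 6 or day 7; 2 without the *Smarca4* hairpin 4 sample of day 5 or quantile normalized, block 0), at a median of 0.58, which was 0.28 with the length tilt removed. With the replicate block 3 were higher, and the count was 3 without hairpin 7, 3 without day 6, 3 without day 7 and 5 after quantile normalization. *Hydin*, a very long gene of the central pair of the axoneme, was at 10.7, 4.2, 1.02 and 1.28 rpm in Nons and 5.52, 10.4 and 19.4 rpm in the knockdown samples, higher in 8 of 8 (log2 fold change = 1.96, SE = 0.28, adjusted *p* = 7.46e-04). *Ccno*, which amplifies centrioles, was at 44.1, 11.2, 1.59 and 0.693 rpm in Nons and 4.18, 13.6 and 65.5 rpm in the knockdown samples. Levels were lower on later days in both groups, and all knockdown samples were above same-day Nons (log2 fold change = 1.62, SE = 0.18, adjusted *p* = 1.10e-04). *Foxj1*, the main transcription factor of motile cilia, was the gene that fell, with both hairpins below Nons on days 5, 6 and 7 (log2 fold change = -0.96, SE = 0.28, adjusted *p* = 0.0477). The call of *Foxj1* was lost with the replicate block and without hairpin 6, day 6 or day 7 (adjusted *p* = 0.133 to 0.58).

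Housekeeping classes held few calls unless days 5 and 6 were left out. Of 85 cytosolic ribosomal proteins 3 were higher (0 without day 7; 1 without day 6 or quantile normalized, block 2) and 0 lower (1 without hairpin 6 or day 5; 18 without days 5 and 6), the higher genes being the tissue-restricted *Rpl3l* (1.32), *Rpl10l* (1.12) and *Rpl39l* (0.94, in log2 fold change), and the list median was -0.18, or -0.01 with the length tilt removed. The 76 mitochondrial ribosomal proteins had a median of -0.07, and none was called in limma (lower genes: 1 without day 5 or the *Smarca4* hairpin 4 sample of day 5; 3 without hairpin 6; 11 without days 5 and 6), with 3 at an unadjusted *p* under 0.05. *Cdk6*, a kinase of the G1 phase, was at 5.75, 10.3, 29.3 and 32.8 rpm in Nons and 3.42, 7.3 and 15.5 rpm in the knockdown samples, lower in all 8 (log2 fold change = -1.08, SE = 0.18, adjusted *p* = 0.00206). *Ldhb*, a lactate dehydrogenase subunit, was at 105, 151, 199 and 156 rpm in Nons and 54.3, 76.8 and 97.5 rpm in the knockdown samples, without overlap (log2 fold change = -0.99, SE = 0.13, adjusted *p* = 4.63e-04). *Ifitm1*, a membrane protein also known from early germ cells, was at 32, 68.2, 28.9 and 12 rpm in Nons and 62, 111 and 192 rpm in the knockdown samples, higher in all 8 (log2 fold change = 1.85, SE = 0.17, adjusted *p* = 3.12e-05). The call of *Rpl3l* was lost without day 6 or day 7 (adjusted *p* = 0.0583 and 0.39). The call of *Rpl10l* was lost without day 7 (adjusted *p* = 0.194). The call of *Rpl39l* was lost with the replicate block and without hairpin 6, day 6 or day 7 (adjusted *p* = 0.0524 to 0.281).

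The largest changes were then taken from the called genes with a mean of at least 1 log2 rpm and with all 8 samples on 1 side of same-day Nons, of which there were 860. The 15 largest rises ranged from 2.46 to 4.88 in log2 fold change and the 15 largest falls from -1.46 to -2.33. *Gm14569*, a predicted gene on the X chromosome, was at 2.15, 0.658, 0.127 and 0.048 rpm in Nons and 4.49, 9.3 and 17 rpm in the knockdown samples, without overlap (log2 fold change = 4.88, SE = 0.51, adjusted *p* = 7.68e-05). *Ephx2*, a soluble epoxide hydrolase of lipid metabolism, was at 5.86, 11.6, 5.41 and 8.05 rpm in Nons and 12.3, 80 and 103 rpm in the knockdown samples. All 8 samples lay above Nons, and the difference was smaller on day 4 than later (log2 fold change = 2.85, SE = 0.17, adjusted *p* = 3.12e-06). *Tdh*, the threonine dehydrogenase on which mESCs depend for growth, was at 86.9, 12.4, 1.53 and 0.426 rpm in Nons and 6.8, 24.7 and 161 rpm in the knockdown samples. It was nearly lost in Nons by day 7 and above same-day Nons in all 8 knockdown samples (log2 fold change = 2.54, SE = 0.21, adjusted *p* = 1.03e-05). *Tgfbi*, a matrix protein induced by TGF-beta, was at 2.22, 1.22, 0.445 and 0.959 rpm in Nons and 2.74, 6.1 and 20.7 rpm in the knockdown samples, without overlap and with the highest values on day 7 (log2 fold change = 2.66, SE = 0.17, adjusted *p* = 3.12e-06). *Stra8*, *Neurog3*, *Dmrt1* and *Gli1* were also among the 15, as were *2410004A20Rik* (4.02), *Gm7325* (3.47), *Itpka* (2.83), *Zyg11a* (2.75), *Cpne5* (2.67), *Gm17657* (2.56) and *Zmym3* (2.46). *Gm7325* is known as myomixer, a micropeptide of muscle cell fusion. In Nons of day 7 *Gm14569* and *Gm7325* had no read and stand at 0.9 of a read. Both passed the minimum level only through the *Smarcc1* samples, so their fold changes, ranks and *p*-values depend on the floor and on the filter. For *2410004A20Rik*, *Neurog3*, *Itpka*, *Zyg11a*, *Cpne5*, *Tgfbi* and *Gm17657* the mean in Nons was also under 1 log2 rpm. They reached the minimum for naming only through the knockdown samples, so their place among the 15 depends on it. *Gm14569* was below the minimum level to be tested without hairpin 6 or hairpin 7. *Gm7325* was below the minimum level to be tested without hairpin 6, hairpin 7, day 4 or day 5.

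The falls were led by *2610528J11Rik*, at 11, 15.2, 37.4 and 24 rpm in Nons and 1, 4.54 and 9.78 rpm in the knockdown samples, without overlap (log2 fold change = -2.33, SE = 0.35, adjusted *p* = 0.00103). *Ctsc*, a lysosomal protease, was at 7.39, 21.2, 43.4 and 43.6 rpm in Nons and 2.37, 6.1 and 9.52 rpm in the knockdown samples. Nons of days 5 to 7 lay above every knockdown sample (log2 fold change = -2.03, SE = 0.15, adjusted *p* = 6.26e-06). *Cpe*, which trims peptide hormones, was at 2.4, 14.2, 30.3 and 72.9 rpm in Nons and 1.32, 5.82 and 12.8 rpm in the knockdown samples, lower in 8 of 8 (log2 fold change = -1.82, SE = 0.21, adjusted *p* = 1.69e-04). *Anxa3*, an annexin of membranes, was at 2.91, 2.89, 84.1 and 281 rpm in Nons and 0.901, 8.98 and 87.8 rpm in the knockdown samples, higher on days 6 and 7 in both groups and lower than Nons in 8 of 8 (log2 fold change = -1.52, SE = 0.20, adjusted *p* = 3.56e-04). *Krt19*, *Perp* and *Tagln* were also among the 15, as were *Herc6* (-1.71), *Galnt3* (-1.69), *9130008F23Rik* (-1.55), *1300014I06Rik* (-1.54), *Acta1* (-1.52), *Vwa5a* (-1.48), *Nhs* (-1.46) and *Pla2g4a* (-1.46). The call of *9130008F23Rik* was lost without day 7 (adjusted *p* = 0.0554). Its mean in the knockdown samples was 0.86 log2 rpm, so it reached the minimum for naming only through Nons. The call of *Acta1* was lost with the replicate block and without hairpin 6, hairpin 7, day 5, day 6, day 7 or the *Smarca4* hairpin 4 sample of day 5 (adjusted *p* = 0.0501 to 0.309). The call of *Nhs* was lost with the replicate block and without hairpin 6, day 4 or day 7 (adjusted *p* = 0.0571 to 0.172).

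A linear trend of the difference from Nons over days 4 to 7 was called for 125 genes, 0.940% of those tested, 115 with a rising and 10 with a falling difference. With the replicate block 292 were called. The count was 129 without day 5, 110 without day 6, 4 without day 4, 6 without day 7 and 10 without hairpin 7, and without hairpin 6 no gene was called in limma, with 886 at an unadjusted *p* under 0.05 and no other tool run without hairpin 6. *Dmrtb1*, a relative of *Dmrt1*, was at 2.07, 2.38, 1.02 and 0.639 rpm in Nons, and its difference rose by 1.89 per day on the log2 scale (SE = 0.14, adjusted *p* = 8.16e-05). It was at 1.41, 7.48, 13.7 and 25.2 rpm with hairpin 6 and 1.77, 6.78, 13.4 and 21.2 rpm with hairpin 7 on days 4, 5, 6 and 7, close to Nons at first and far above it at the end. The difference of *Zp3*, a protein of the egg coat, rose by 1.45 per day (SE = 0.13, adjusted *p* = 3.11e-04), and those of *Ace*, *Arhgap30* and *Gm15055* by 1.56, 1.48 and 1.72. *Gm15055* was at 15, 2.73, 0.0636 and 0.048 rpm in Nons. It went from 15.8 on day 4 to 1.74 rpm on day 7 with hairpin 6 and from 13.4 to 0.624 rpm with hairpin 7. Nons of day 7 had no read, so the slope of *Gm15055* depends on the floor. The level of *Zp3* too was lower on day 7 than on day 4 in Nons and with both hairpins. *Atp1b1*, a subunit of the sodium pump, was at 36.5, 36.7, 236 and 309 rpm in Nons, 68.3, 22.3, 43 and 62.5 rpm with hairpin 6 and 61, 23.8, 84 and 72.5 rpm with hairpin 7. It was above Nons on day 4 and below it from day 5, with a trend of -1.04 per day (SE = 0.15, adjusted *p* = 0.00802). *Phlda1*, *Scn3b* and *Cd68* had trends of -0.97, -0.90 and -0.80 per day. These 3 genes were above Nons on day 4 and below it on day 7 with both hairpins.

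The knockdown of *Smarcc1* was set against that of *Smarca4* directly, without Nons. Here 544 genes differed, 4.09% of those tested. In *Smarcc1* knockdown 339 of them were higher and 205 lower, and entering the replicate block left 105. The count was 43 without hairpin 6, 257 without hairpin 7, 326 without day 4, 187 without day 6, 59 without day 7 and 1067 without the *Smarca4* hairpin 4 sample of day 5, which had 6829596 reads. Each target was lower under its own hairpins: *Smarcc1* by a log2 difference of -1.54 (SE = 0.17, adjusted *p* = 4.17e-04), while *Smarca4* was higher in *Smarcc1* knockdown by 2.06 (SE = 0.24, adjusted *p* = 5.08e-04). *Gli1* was higher in *Smarcc1* than in *Smarca4* knockdown (log2 difference = 1.69, SE = 0.15, adjusted *p* = 1.39e-04), as were *Stra8* (log2 difference = 1.93, SE = 0.23, adjusted *p* = 5.65e-04), *Spp1* (log2 difference = 1.21, SE = 0.15, adjusted *p* = 7.02e-04) and *Pecam1* (log2 difference = 1.32, SE = 0.11, adjusted *p* = 1.39e-04). *Nanog* (log2 difference = 0.25, SE = 0.12, adjusted *p* = 0.354) and *Piwil2* (log2 difference = 0.02, SE = 0.13, adjusted *p* = 0.964) did not pass this test, which does not show that they were equal. *Marveld3*, a tight junction protein, was lower in *Smarcc1* knockdown (log2 difference = -0.85, SE = 0.12, adjusted *p* = 0.0016), and so was *Cldn7* (log2 difference = -0.95, SE = 0.14, adjusted *p* = 0.00273). Of the 18 naive genes tested 7 were higher and 0 lower in *Smarcc1* knockdown. Of the 35 germline genes 2 were higher and 0 lower, and of the 27 epithelial genes 0 and 9. Among all 13296 genes tested 339 were higher and 205 lower. These list counts come from the fit without the replicate block, and their dependence on single hairpins or days was not tested.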

How the data were processed

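Male mESC RNA-seq reads were trimmed, aligned to mm10 with HISAT2 and counted per gene in SeqMonk by the authors, who deposited log2 rpm; annotation and strand use are not named. The lowest value of each sample equals 0.9 of a read, from which whole reads were recovered (within 0.02 of a read for 100% of values under 1000 reads and at least 99.87% of all). A mean of 0 log2 rpm or more was required (13296 of 25965 entries), and these genes were fitted in limma 3.58.1 (R 4.3.3; limma-trend) over 20 samples with a mean per target and day (8 residual degrees of freedom), and *p*-values were adjusted by Benjamini-Hochberg at 0.05. Contrasts were the day-matched mean difference, its linear trend over days, and *Smarcc1* against *Smarca4*. The block fit entered each series of 4 days as a random effect (duplicateCorrelation, 0.217). Genes were named by rule: *Smarcc1* and *Smarca4*, the 15 largest rises and falls, members of 50 lists and 23 symbol families, mainly the called members with the largest changes, defining markers and genes among the 5 largest trends each way. Members and lists were chosen with earlier results of these data known. Transcript lengths came from GENCODE for 85.9% of genes tested. Alternatives covered low-value filters, a pseudocount, centring, quantile normalization, voom, robust spread, 12 samples only, the block and leaving out hairpins or days. The 4 samples of Nons replicate 2 were not analysed here. Tables and figures used Python 3.11.15, pandas 2.3.3, numpy 2.4.6 and matplotlib 3.10.9.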

Additional observations from a re-analysis of the deposited data

Results flagged for a closer look

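Genes named above whose difference from Nons changed over days by the linear trend in limma were listed with their slope per day on the log2 scale. A positive slope can also come with a level that goes down in both groups. The largest positive slopes were those of *Dmrtb1* (1.89), *Peg12* (1.73), *Gm15055* (1.72, which depends on the floor in Nons), *Ace* (1.56), *Arhgap30* (1.48), *Zp3* (1.45), *Neurog3* (1.43), *Tgfbi* (1.42), *Stra8* (1.29) and *Rpl3l* (1.23). Next came *Tdh* (1.20), *Gm17657* (1.16), *Dll1* (1.12), *Cpne5* (1.08), *Sox18* (1.07), *Pecam1* (0.96), *Gli1* (0.95), *Itpka* (0.92), *Ccno* (0.81) and *Zmym3* (0.81). Then followed *Klf2* (0.77), *Ephx2* (0.76), *Lefty1* (0.73), *Dmrt1* (0.72), *Wnt8a* (0.68), *Dnmt3l* (0.57) and *Lefty2* (0.53). Negative slopes were found for *Atp1b1* (-1.04), *Phlda1* (-0.97), *Scn3b* (-0.90), *Cd68* (-0.80) and *Perp* (-0.80).

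Samples far from the others of their group were sought by Dixon's ratio in 56 groups of samples, and 2 were found, while chance flags about 1 in 20 groups. The *Smarca4* hairpin 4 sample of day 5 had 6829596 reads, far below the other *Smarca4* samples. For the list of trophoblast and simple epithelium, the median difference from same-day Nons was 0.85 with *Smarcc1* hairpin 7 on day 5, above the other 7 knockdown samples.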

How the results depend on the processing

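The number of genes called depends on which samples and genes enter the fit. Counts are given in the order *Smarcc1* against Nons, trend over days and *Smarcc1* against *Smarca4*. They were 1412, 125 and 544 in the fit as reported. With a mean of at least 10 rpm, which tests fewer genes, they were 491, 21 and 182. With the replicate block they were 605, 292 and 105. This block is the series of 4 days, because Nons and *Smarcc1* share no replicate number. *Smarcc1* and *Smarca4* share the number 6, which names a different hairpin in each. Leaving out day 4 gave 963, 4 and 326, leaving out day 6 gave 811, 110 and 187, and leaving out day 7 gave 400, 6 and 59. Leaving out 1 *Smarcc1* hairpin, where the lone sample of a day is assumed to vary like the other groups, gave 818 to 1253, 0 to 10 (886 at an unadjusted *p* under 0.05 in limma without hairpin 6) and 43 to 257. The trend was called for 67 genes after adding 1 to rpm, 22 after quantile normalization and 50 with 12 samples only. Alternatives chosen after seeing the data gave 3768, 1562 and 1740 without days 5 and 6. They also gave 282 trends and 850 differences from *Smarca4* with the length tilt removed, and 1067 such differences without *Smarca4* hairpin 4 on day 5. The minimum of 10 rpm lowers the counts by testing fewer genes, and for the other alternatives the cause was not tested.

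The log2 fold change of *Smarcc1* stayed negative and called under every alternative. Of the 114 named genes that were called, 96 kept the call with the replicate block and 74 without day 7, and none reversed. Reversals were confined to genes that were not called. *Cd68* (0.07) was at -0.02 with rpm plus 1, -0.07 after quantile normalization, -0.07 without day 4, -0.45 without day 5 and -0.48 without days 5 and 6. *Phlda1* (-0.02) was at 0.31 without day 6, 0.38 without day 7, 0.11 without days 5 and 6, 0.05 with the length tilt removed and -0.11 to 0.07 without a hairpin. *Pou5f1* (0.05) was at -0.01 after centring, -0.09 without day 7 and -0.20 to 0.30 without a hairpin. *Gata3* (-0.01) was at 0.20 without day 6, 0.10 without day 7, 0.16 without days 5 and 6 and -0.29 to 0.26 without a hairpin. *Lrp2* (-0.03) was at 0.04 after quantile normalization, 0.04 without day 5, 0.13 without day 7, 0.00 without days 5 and 6 and -0.44 to 0.39 without a hairpin. *Scn3b* was at 0.24 without day 7, *Tal1* at -0.36 after quantile normalization and *Smarca4* at -0.03 to 0.57 without a hairpin. The cause was not tested.

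The comparison has 1 Nons series, so each day rests on 1 control sample. An alternative with both Nons series was planned and gave no value, since the second has no column in the table. Depth limits genes under about 1 rpm, where a few reads decide the level. Reads were not available here, so that counts could not be redone with another annotation.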

Other observations

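Large gene families had more higher than lower calls, as did all genes (7.54% and 3.08%). Of 327 zinc finger genes named Zfp 19 (5.81%) were higher and 3 lower (1 without hairpin 6, day 4, day 6 or day 7; 5 without the *Smarca4* hairpin 4 sample of day 5 or quantile normalized; 8 without days 5 and 6, block 1) than Nons, with a median log2 fold change of 0.14, and 3 were higher with the replicate block. The count of higher genes was 10 without hairpin 7, 9 without day 4, 8 without day 6, 2 without day 7, 59 without days 5 and 6 and 10 after quantile normalization. Of 214 solute carriers 19 (8.88%) were higher and 5 lower, 9 and 1 with the replicate block, the count of higher genes was 11 without hairpin 7, 11 without day 4, 11 without day 6, 6 without day 7, 57 without days 5 and 6 and 11 after quantile normalization, and that of lower genes 1 without hairpin 6, 3 without hairpin 7, 3 without day 4, 3 without day 6, 1 without day 7 and 9 without days 5 and 6. Of 13 Sox genes 6 were higher, at a median of 0.61, 4 with the replicate block, and the count was 3 without hairpin 6, 3 without hairpin 7, 3 without day 6 and 3 without day 7. *Sox18*, a factor of endothelial cells, was at 0.546, 0.456, 0.254 and 0.16 rpm in Nons and 1.09, 2.53 and 4.03 rpm in the knockdown samples, without overlap (log2 fold change = 2.81, SE = 0.24, adjusted *p* = 1.75e-05). It passed the minimum level only through the *Smarcc1* samples, so these values and the count of 6 depend on the filter. Of 22 collagen chains 4 were higher, at a median of 0.56, 1 with the replicate block, and the count was 1 without hairpin 7, 7 without day 5, 1 without day 6, 1 without day 7, 8 without days 5 and 6 and 2 after quantile normalization. Olfactory receptors had no gene above the minimum level to be tested among 1086. *Sox18* was below the minimum level to be tested without hairpin 6, hairpin 7, day 5 or the *Smarca4* hairpin 4 sample of day 5.

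*Gjb1*, a connexin of gap junctions in liver and Schwann cells that lies on the X chromosome, was near the floor in Nons. It was at 1.24, 0.152, 0.0573 and 0.048 rpm in Nons and 2.93, 5.32 and 7.56 rpm in the knockdown samples, without overlap and with the lowest values in Nons equal to 0.9 of a read (log2 fold change = 5.13, SE = 0.42, adjusted *p* = 1.03e-05). It passed the minimum to be tested only through the *Smarcc1* samples, so the size of its fold change depends on the floor and the filter. It was chosen after its values were seen. Another connexin, *Gjc1*, was higher in all 8 samples (log2 fold change = 0.78, SE = 0.13, adjusted *p* = 0.00212), and the other 4 connexins tested were not called. Genes of the switch between epithelial and mesenchymal states were mixed, with 2 higher (1 without day 7, block 2) and 2 lower (0 without hairpin 6, day 4 or day 7; 1 without hairpin 7, day 5 or day 6; 4 without days 5 and 6, block 0) of 11. *Zeb1*, which represses epithelial genes, was at 17.6, 6.08, 1.91 and 2.13 rpm in Nons and 9.12, 13 and 26.8 rpm in the knockdown samples, higher in 8 of 8 (adjusted *p* = 7.53e-04), while *Cdh2*, the mesenchymal cadherin, was lower in 8 of 8 (log2 fold change = -1.26, SE = 0.35, adjusted *p* = 0.0374). The call of *Zeb1* was lost without day 7 (adjusted *p* = 0.0503). The call of *Cdh2* was lost with the replicate block and without hairpin 6, hairpin 7, day 4 or day 7 (adjusted *p* = 0.0967 to 0.304). *Gjb1* was below the minimum level to be tested without hairpin 6, hairpin 7, day 4 or day 5.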
